A study of Homo sapiens with 2 samples.

Results

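The peaks of chromosome 1 were described in a ChIP-seq experiment that mapped where the methyltransferase fusion dCas9-BFP-DNMT3A sat on the genome of HEK293T cells. Chromosome 1 was chosen by its number of peaks per sequenced Mb, the highest of all chromosomes. It held 1042 of the 7757 peaks listed (13.4%) on 7.88% of the sequenced bases of chromosomes 1 to 22, X and Y. Because this density selected the chromosome, it is given as a description and was not tested.

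HEK293T is a human embryonic kidney line that carries the SV40 large T antigen. The ChIP sample came from cells transfected with plasmids for dCas9-BFP-DNMT3A (500 ng) and for gRNAs against *uPA* (500 ng in total), taken 48 hours later and precipitated through the HA tag of the fusion. The control was 1 input library of HEK293T chromatin that was not precipitated, for which the labels name neither a fusion nor a gRNA. With 1 ChIP sample there were no replicates, no ChIP without gRNAs and no ChIP of untransfected cells, so every interval below covers counting error in 1 list of peaks.

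dCas9 is a Cas9 protein that binds DNA under the direction of a gRNA but does not cut it. It first recognises an NGG protospacer adjacent motif (PAM) and then pairs the gRNA with the DNA outward from the PAM, so that the bases nearest the PAM, the seed, weigh most in binding. DNMT3A is a *de novo* methyltransferase that adds methyl groups to CpG cytosines, and *uPA* (*PLAU*), the gene the gRNAs were designed for, encodes the urokinase plasminogen activator and does not lie on chromosome 1.

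Sequences are shown first because most of the strongest peaks of chromosome 1 carry a match to 1 gRNA, T2. The gRNA T2 is rich in G and A, and its last 11 bases hold no other base. It is printed here 5′ to 3′ with its last 5 bases, the seed, in capitals.
T2: gagccgggcgggagaGGGAG
Below it are sites of chromosome 1 found at peak summits, in hg19, read 5′ to 3′ on the strand that matches T2. Capitals mark the unbroken match to T2 that ends at the PAM, followed by the PAM itself. The first 3 have the longest matches at any summit of the chromosome, the next 3 have 11 bases, and the last 3 show shorter matches at strong peaks.
KCNJ10: acctgggcCGGGAGAGGGAGAGG
TGFBR3: cattgggaCGGGAGAGGGAGGGG
CAMTA1: gaggcggaCGGGAGAGGGAGCGG
PLEKHA6: ttgtgtgctGGGAGAGGGAGAGG
HAX1: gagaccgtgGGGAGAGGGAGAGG
PLA2G2C: gagggaggtGGGAGAGGGAGAGG
BNIPL: gtccagcctaGGAGAGGGAGAGG
HAPLN2: ctccatgagggcAGAGGGAGTGG
ZC3H11B: tggattgactttgtgGGGAGAGG
In the same order, they lie at chr1:160035796-160035818 (plus strand), chr1:92379296-92379318 (plus), chr1:7711084-7711106 (minus), chr1:204308626-204308648 (plus), chr1:154259385-154259407 (minus), chr1:20511286-20511308 (plus), chr1:151019111-151019133 (minus), chr1:156588834-156588856 (minus) and chr1:219722325-219722347 (plus). *HAX1*, *TGFBR3*, *HAPLN2* and *ZC3H11B* name the nearest protein-coding start, and the other genes hold the summit. The match of 12 bases at *CAMTA1* was the closest to T2 among the best sites of all chromosome 1 peaks, with 18 of 20 bases matched. Counted from 1 at the 5′ end of T2, it differed by C4G and G8A. The sites at *TGFBR3* and *KCNJ10* matched 15 and 14 of 20 bases, and the *KCNJ10* site differed by G1A, A2C, G3C, C4T, C5G and G8C.

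Chromosome 1 held 4.63 peaks per sequenced Mb (95% exact Poisson interval 4.35 to 4.91). Just below it was chromosome 22, with 159 peaks and 4.56 per Mb (3.88 to 5.32), and the ratio of the pair was 1.02 (0.858 to 1.21). The third was chromosome 10 with 3.82 per Mb. The 6707 peaks of the other chromosomes gave 2.55 per Mb, and chromosome 2, which is close to chromosome 1 in sequenced length, gave 2.66 per Mb from 633 peaks. The first place of chromosome 1 over chromosome 22 was therefore within counting error, while its density was 1.82 times that of all others together.

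**Figure D1:**
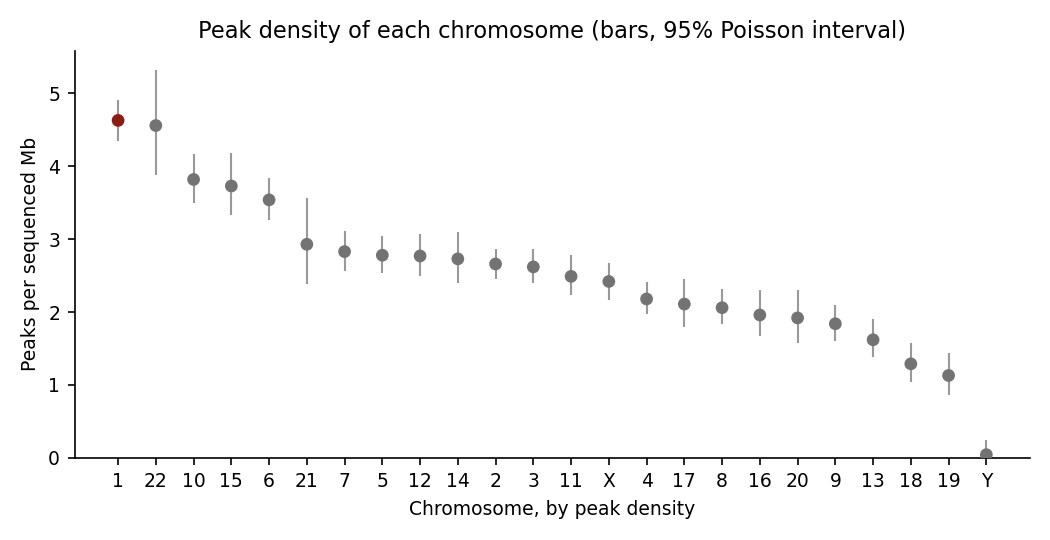
Peaks per sequenced Mb (vertical axis) for each chromosome, ordered by density, with 95% exact Poisson intervals as bars and chromosome 1 in red. Chromosome 1 at 4.63 and chromosome 22 at 4.56 have intervals that overlap, and the other autosomes run from 3.82 on chromosome 10 down to 1.13 on chromosome 19.

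The longest unsequenced run of chromosome 1, 21.1 Mb from 121485435 to 142535434, was used to divide the arms. The short arm held 496 peaks on 120.5 Mb, or 4.12 per Mb (3.76 to 4.50). The long arm held 546 peaks on 105 Mb, or 5.21 per Mb (4.78 to 5.67), 1.27 times as many per Mb (1.12 to 1.43). Without the first 25 Mb of the short arm, left out after its values were seen, the ratio was 1.04 (0.917 to 1.18).

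Within the arms the peaks were spread unevenly. Of 50 bins of 5 Mb, 47 had at least 1 Mb of sequence, and their density ran from 0.208 to 12.3 per Mb with a median of 4.0. The bin from 30 to 35 Mb held the most, 61 peaks. It was followed by 51 peaks at 225 to 230 Mb, 46 each at 150 to 155 Mb and 200 to 205 Mb, 44 at 230 to 235 Mb and 42 at 55 to 60 Mb. These 6 bins held 290 of the 1042 peaks. At the other end, 5 of the 47 bins held at most 2 peaks each, and 3 of them lay in the first 25 Mb.

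**Figure D2:**
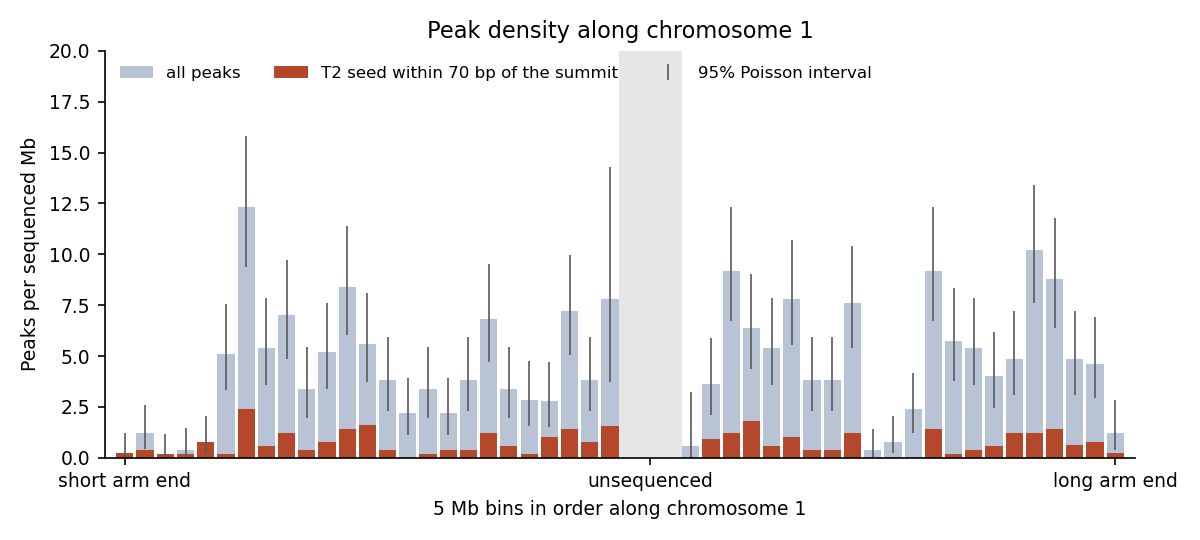
Peaks per sequenced Mb (vertical axis) in 5 Mb bins ordered from the end of the short arm to the end of the long arm, with 95% exact Poisson intervals as lines and the peaks with a T2 seed in red. The first 5 bins stay at or below 1.2 per Mb, the seventh reaches 12.3, and 2 neighbouring bins on the long arm hold 0.40 and 0.80 per Mb.

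The end of the short arm stood apart from the rest of the chromosome. The 5 bins of its first 25 Mb held 1, 6, 1, 2 and 4 peaks, 14 in all on 24.4 Mb, or 0.574 per Mb (0.314 to 0.963). The next 30 Mb inward, of similar gene density (13.3 against 13.5 protein-coding genes per Mb), held 191 peaks, or 6.40 per Mb (5.52 to 7.37). The end of the arm was the richest of the 9 stretches into which the chromosome was divided in T2 seeds, with 494 sites of 5 bases and PAM per Mb, against 374 in the 30 Mb inward of it. A T2 match of at least 5 bases lay at 9 of the 14 summits (64.3%, Wilson interval 38.8 to 83.7). That share was 15.7% over all chromosome 1 summits and 17.2% over the whole list. The boundary at 25 Mb and those of the stretches below were drawn after the values were seen, so these differences are descriptions.

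These 14 peaks were small and narrow. They held 20 to 49 tags, with a median of 28 tags and a median length of 785 bp. The 9 with a T2 match lay in introns of *MEGF6*, *CAMTA1*, *LRRC38*, *PLA2G2C*, *VWA5B1* and *USP48*, and between genes with *PARK7*, *IGSF21* and *IFNLR1* as the nearest starts. *CAMTA1* encodes a calmodulin-binding transcription activator and *PARK7* the protein DJ-1. The *CAMTA1* peak with the 12-base match had 27 tags and a fold enrichment of 6.31, and the *PARK7* peak, 9639 bp upstream of the start, had 30 tags and 6.61. The 5 without a match had fold enrichments of 3.33 to 4.81, and lay in introns of *CAMTA1*, *RERE*, *SLC2A5* and *SDHB* and 3378 bp upstream of a start of *ACOT7*. The 9 with a match ran from 4.81 to 8.71, so that the groups met at 4.81.

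A second stretch with few peaks lay on the long arm, from 185 to 195 Mb. It held 6 peaks on 10 Mb, or 0.60 per Mb (0.220 to 1.31), and unlike the end of the short arm it was poor in genes and in T2 seeds, with 2.40 protein-coding genes and 124 seed sites per Mb. None of the 6 summits had a T2 match (Wilson interval 0 to 39%), and by the limit of 3 counts a 0 among 6 allows a share of up to 50%. Their tags ran from 29 to 91 and their fold enrichments from 2.63 to 3.40. They included an intron of *HMCN1*, which encodes the extracellular matrix protein hemicentin, and an intron of *CDC73*, a subunit of the PAF1 complex of RNA polymerase II. The sites between genes lay 26028 bp from *PDC*, 33187 bp from *RGS2*, and 255860 and 1388362 bp from *B3GALT2*, their nearest starts.

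Across the 47 bins the number of peaks per Mb followed the base composition only weakly. Spearman's rho was 0.249 with GC content, 0.202 with protein-coding genes per Mb and 0.280 with T2 seed sites per Mb. Over the 22 long arm bins the same values were 0.735, 0.513 and 0.788, and over the 42 bins from 25 Mb on they were 0.703, 0.481 and 0.722. Over the 25 short arm bins they were -0.0886, -0.0825 and -0.042. GC content, genes and seed sites rise and fall together along the chromosome, and neighbouring bins are not independent, so no *P* value is given. The 5 bins at the end of the short arm were high in T2 seed sites and low in peaks.

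**Figure D3:**
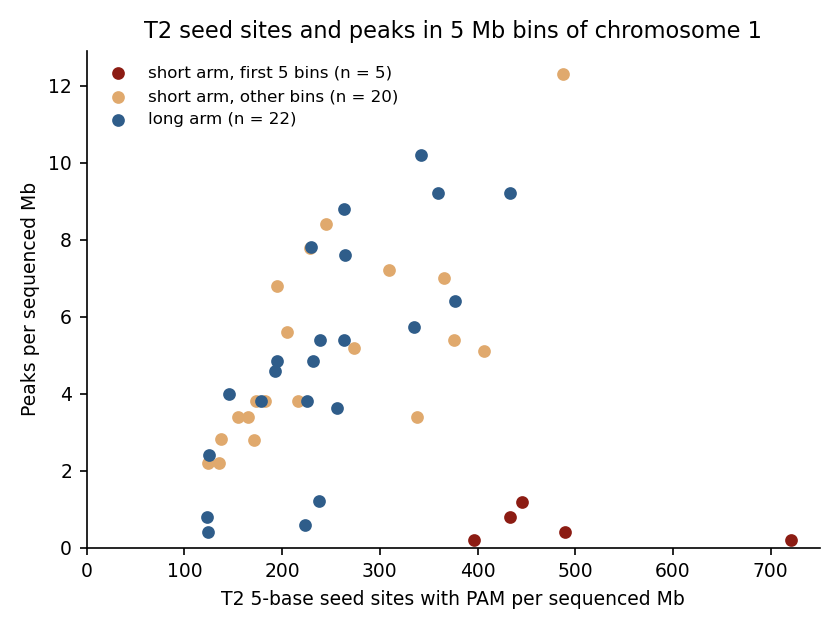
Peaks per sequenced Mb (vertical axis) against T2 5-base seed sites with a PAM per sequenced Mb (horizontal axis) for 47 bins of 5 Mb, each bin a point. The first 5 bins of the short arm lie at 396 or more sites per Mb with at most 1.2 peaks per Mb, apart from the rising cloud of the other 42 bins.

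Tags and fold enrichment were taken from the same ChIP against input contrast as the peaks and are described without a test. Fold enrichment compares the ChIP tags at the summit with the background that MACS estimated, from the input around the peak or from the genome as a whole, whichever is larger. The chromosome 1 peaks were larger than the others but less enriched. Their median was 43 tags (interquartile range 32 to 61), against 33 (26 to 43) on the other chromosomes. They were also longer, with a median of 1106 bp against 899 bp, and the median tags per kb differed less, at 38.3 against 36.7. Their median fold enrichment was 3.6 (3.18 to 4.21), against 3.91 (3.41 to 4.51) elsewhere. With chromosome Y and its 1 peak left out, chromosome 1 came second of 23 chromosomes in median tags, second in median length and second lowest in median fold enrichment, in each case after chromosome 18.

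Both arms shared this pattern. The short arm had a median of 42 tags and a fold enrichment of 3.61, and the long arm 43 tags and 3.59. Chromosome 2 had 33 tags and 3.91, and chromosome 22, the chromosome nearest in density, had 30 tags and 4.01. Wide, tag-rich peaks were more frequent on chromosome 1: 111 of its peaks spanned at least 2000 bp (10.7%, Wilson interval 8.92 to 12.7) against 2.97% elsewhere, and 64 held at least 100 tags (6.14%, 4.84 to 7.77) against 1.79%. A *P* value at or below 1e-05 was given to 175 peaks (16.8%, 14.6 to 19.2), where the whole list had 15.8%. The false discovery rate in the list was 100% for 835 of the 1042 peaks, where MACS estimates that rate by exchanging ChIP and input, and the share elsewhere was 82.0%.

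The wide peaks were concentrated in a stretch of each arm. From 55 to 85 Mb on the short arm, 128 peaks had a median of 61 tags (46 to 86), a median length of 1421 bp and a median fold enrichment of 3.27. From 220 to 240 Mb on the long arm, 143 peaks had 63 tags (44 to 85.5), 1467 bp and 3.39. Each stretch held 23 of the 64 peaks with at least 100 tags. In contrast, the 191 peaks from 25 to 55 Mb had 35 tags, 914 bp and 3.80, and the 132 from 195 to 220 Mb had 37 tags, 995 bp and 3.64. The stretches with wide peaks differed from each other in density, at 4.27 and 7.19 per Mb, so that tags per peak and peaks per Mb did not go together (Spearman's rho 0.0664 over 47 bins).

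**Figure D4:**
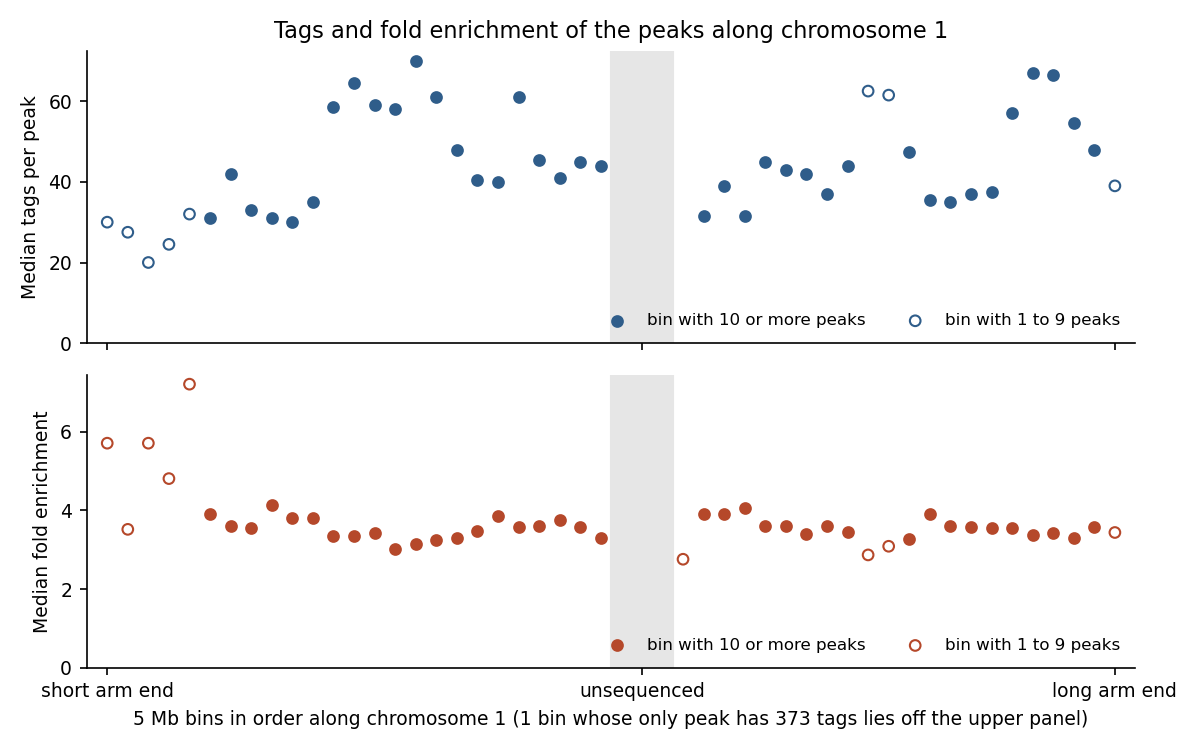
Median tags per peak (upper panel) and median fold enrichment (lower panel) in 5 Mb bins ordered along chromosome 1, with filled points for bins of 10 or more peaks and open points for fewer. Median tags run from 54.5 to 70 in 2 stretches, 55 to 85 Mb and 220 to 240 Mb, where median fold enrichment stays between 3.01 and 3.55. Outside them, similar medians occur at 100 to 105 Mb (61) and in the sparse bins from 185 to 195 Mb (62.5 and 61.5).

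The background behind the fold enrichment also differed along the chromosome. The genome-wide background was 3.33 tags per fragment length of 200 bp, so a peak measured against it has a fold enrichment that is a whole number of tags times 0.300. Within a tolerance of 0.005, 211 of the 1042 chromosome 1 peaks did (20.2%, 17.9 to 22.8), against 39% of the peaks elsewhere, where values spread evenly would give 3.33%. By this measure the other peaks had a local background above the genome-wide one. Of 23 chromosomes, with chromosome Y left out, chromosome 18 had a lower share (19.8%), and chromosomes 6 (22.3%) and 4 (26.3%) came next after chromosome 1. Along chromosome 1 the share was 78.6% (11 of 14) in the first 25 Mb, 30.9% from 25 to 55 Mb, 10.2% from 55 to 85 Mb and 4.2% from 220 to 240 Mb. In these 4 stretches it ran opposite to the tags per peak, but not in all 9: it was 39.3% from 240 Mb to the end of the long arm, with a median of 47.5 tags, and 23.5% from 195 to 220 Mb, with 37. The list gives no input tags per peak, and the part of this background in the number of peaks was not tested.

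The share of summits with a T2 seed did not differ from that of the other chromosomes beyond counting error. A T2 match of at least 5 bases next to a PAM lay within 70 bp of 164 of the 1042 summits (15.7%, Wilson interval 13.7 to 18.1), where the whole list had 17.2%. The difference from the other chromosomes was -1.74 percentage points (Newcombe interval -4.02 to 0.765). Matches of at least 8 bases lay at 117 summits (11.2%, whole list 13.1%) and of at least 11 bases at 81 (7.77%, whole list 9.74%). For 11 bases the difference from the other chromosomes was -2.28 points (-3.93 to -0.359), an interval that excludes 0. Over the whole length of the peak in place of the 70 bp, the direction turned for matches of at least 5 bases, with 36.1% against 31.6%, beside the greater length of the chromosome 1 peaks given above. It did not turn for at least 8 bases, with a difference of -2.70 points (-4.83 to -0.329), or for at least 11, with -2.86 (-4.60 to -0.855).

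By arm, the share with at least 5 bases was 17.5% (87 of 496) on the short arm and 14.1% (77 of 546) on the long arm, a difference of -3.44 points (-7.91 to 0.992). The T2 share was lowest from 195 to 220 Mb among the stretches with over 20 peaks, where 13 of 132 summits had a match (9.85%, 5.85 to 16.1). From 85 Mb to the unsequenced run it was 18.4% (30 of 163), and from 55 to 85 Mb 15.6% (20 of 128). Peaks without a T2 match numbered 878 and made up most of the density of every bin with more than 6 peaks.

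A longer match went with a higher fold enrichment on both arms. On chromosome 1 the median fold enrichment was 3.48 (interquartile range 3.10 to 3.91) for the 878 peaks without a seed, 4.18 (3.71 to 4.91) for 47 peaks with 5 to 7 bases, 5.01 (4.22 to 5.92) for 36 with 8 to 10 bases and 5.92 (4.90 to 7.22) for 81 with 11 or more. The interquartile ranges of the first and the last class did not overlap. Single peaks did overlap, as 1 without a seed reached 11.7 and 1 with 11 bases had 3.08. The short arm gave 3.44, 4.21, 4.72 and 5.73 in the same order, and the long arm 3.51, 4.18, 5.54 and 5.97. Median tags, 42, 43, 53.5 and 53, differed less between the classes, and a *P* value at or below 1e-05 was given to 10.1% of the first class and 69.1% of the last. On the other chromosomes, the fold enrichment medians of the same classes were 3.69, 4.30, 5.16 and 6.01, each higher than on chromosome 1.

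**Figure D5:**
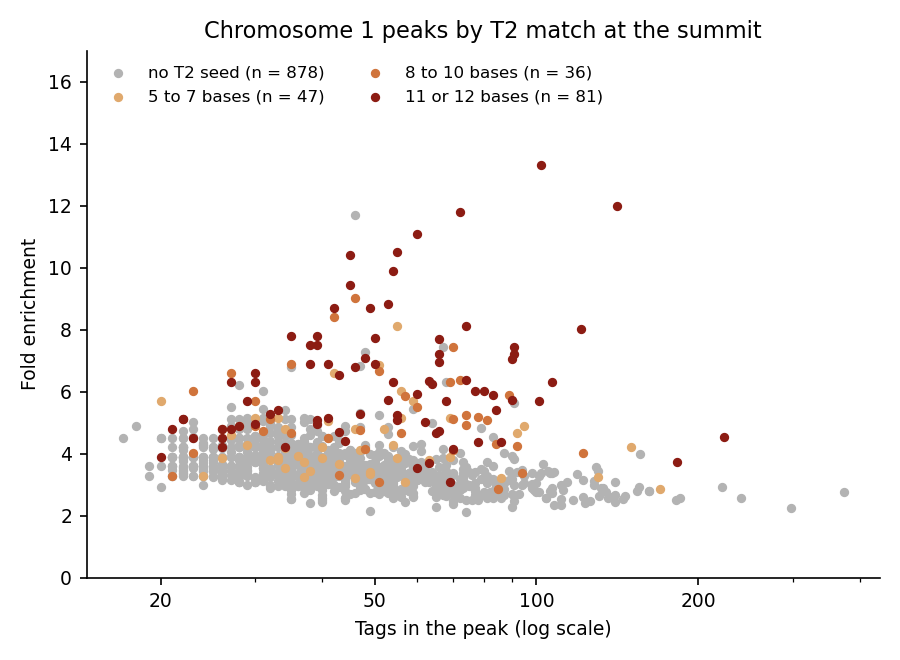
Fold enrichment (vertical axis) against tags (horizontal axis, log scale) for the 1042 chromosome 1 peaks, each a point coloured by the length of its T2 match at the summit. Peaks with 11 or 12 matched bases are 16 of the 20 highest points, at a fold enrichment of 7.75 and above, while the 3 peaks with the most tags, 240 to 373, lie below 3 and have no T2 seed.

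The sites themselves had common features that the choice of the chromosome did not use. The best T2 site of the 164 peaks had a median distance of 16.5 bp to the summit, on the plus strand in 80 and on the minus strand in 84. The PAM was AGG in 99 (60.4%), GGG in 43, TGG in 14 and CGG in 8. PAMs were not counted over all T2 sites of the genome, so these counts are not read as a property of bound sites. Outside the seed, base 10 of the guide, counted whether or not the run to the PAM was unbroken, matched far more often than base 9, although the longest match was preferred when the best site was taken. Base 10 matched in 72.0% (64.6 to 78.3) and base 9 in 11.6% (7.54 to 17.4), where the other chromosomes had 73.0% and 9.81%. Base 9 of T2 is a C, and its other C bases, 4 and 5, matched in 11.6% and 12.8%. The G bases 6 to 8, farther from the PAM than base 9, matched in 36.0 to 47.6%. The drop at base 9 is therefore not read as an end of pairing. The 3 sites shown for *KCNJ10*, *TGFBR3* and *CAMTA1* were the only best sites with an unbroken match through base 9. A further property of T2 touches all counts of sites: its last 11 bases, GGGAGAGGGAG, contain GGGAG followed by AGG, so that each long match is counted again as a shorter one. Of the other 4 gRNAs, T4 had a 5-base seed with PAM within 70 bp of 22 chromosome 1 summits (2.11%, 1.4 to 3.18; whole list 2.45%), and 15 of these also had a T2 match. T3 and T5 had 13 each (1.25%), where the whole list had 1.07% and 1.55%, and T1 had 5 (0.48%, whole list 0.40%).

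Seen from the sites, most T2 seeds of chromosome 1 had no peak. The chromosome holds 61176 seeds of 5 bases with a PAM (272 per Mb), of which 372 lay within 70 bp of a summit (0.608%, Wilson interval 0.550 to 0.673). The other chromosomes had 0.424%. Of 668 sites with 11 bases, 154 were at a summit (23.1%, 20 to 26.4), where the other chromosomes had 17.6%. These shares rise with the number of peaks per Mb, by which the chromosome was chosen, so they are a description and nothing is read from the difference. Because T2 sites lie in runs, sites less than 150 bp apart were also counted once, a choice made after seeing the data. Then 81 of 295 runs with 11 bases were at a summit (27.5%, 22.7 to 32.8), beside 23.7% elsewhere.

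Along the chromosome, the share of 11-base runs at a summit was 6 of 57 (10.5%, 4.91 to 21.1) at the end of the short arm, and only the stretch from 185 to 195 Mb, with 0 of 2, was lower. It was 14 of 56 (25%, 15.5 to 37.7) from 25 to 55 Mb, 8 of 17 (47.1%, 26.2 to 69.0) from 55 to 85 Mb and 12 of 27 (44.4%, 27.6 to 62.7) from 220 to 240 Mb. Among the stretches with over 20 peaks, the pair with the greatest median length thus had the highest shares, with wide intervals, while the stretch from 185 to 195 Mb had a median length of 1569 bp over its 6 peaks. The arms did not differ beyond counting error, with 25% of 172 runs on the short arm and 30.9% of 123 on the long arm (difference 5.89 points, -4.33 to 16.3).

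Ordered by fold enrichment, the first peak of chromosome 1 was also the first of the whole list, while other chromosomes had peaks with more tags (up to 505) and higher scores (-10 log10 *P*, up to 546). It spans chr1:160035260-160036925 in an intron of *KCNJ10* (ENSG00000177807), 2043 bp downstream of the nearest of its starts, and held 102 tags with a fold enrichment of 13.3. *KCNJ10* encodes an inwardly rectifying potassium channel of glial cells, Kir4.1. The second, chr1:92377743-92379884, had 141 tags, a fold enrichment of 12.0 and the smallest *P* value of the chromosome, with a score of 287. It lay 7374 bp upstream of the start of *TGFBR3* (ENSG00000069702), which encodes betaglycan, the type III TGF-beta receptor. *TGFBR3* is a gene for which the study designed other gRNAs, but the labels of this sample name only those for *uPA*. Inside *TGFBR3* (226 kb, minus strand) were 2 further summits without a T2 match, with 87 and 60 tags and fold enrichments of 2.67 and 3.18. Both of the strongest peaks had a 12-base match to T2, as printed above.

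The third, 72 tags and a fold enrichment of 11.8, lay in an intron of *PLEKHA6* on an 11-base match. For each of these first 3 peaks the list gave a false discovery rate of 100%. The rest of the 20 peaks with the highest fold enrichment had rates of 15.2 to 83.4%. The fourth was the exception among the strong peaks. At chr1:48954331-48955172, 16858 bp upstream of *SPATA6*, it held 46 tags with a fold enrichment of 11.7 and had no T2 seed within 70 bp. Of the 20 peaks with the highest fold enrichment, 7.75 to 13.3, 19 had a T2 match of at least 5 bases and 16 one of at least 11. All 20 lay outside coding exons, 11 in genes, 8 on the short arm and 12 on the long arm. Their tags ran from 35 to 141, within the range of 17 to 373 tags of the whole chromosome.

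The 20 peaks included those of *KCNJ10* and *KCNH1*, both potassium channel genes. Introns of *NKAIN1*, *LAX1*, *TTC22*, *KCNH1*, *VWA5B1*, *BNIPL*, *DNM3* and *PLA2G2C* were among those that held a summit. *KCNH1* encodes a voltage-gated channel (45 tags, fold enrichment 9.46), *DNM3* a dynamin of membrane scission (121 tags, 8.02) and *LAX1* an adaptor of lymphocyte signalling (55 tags, 10.5). The nearest starts of the peaks between genes were *HAX1*, *HAPLN2*, *ZNF648*, *IER5*, *ZC3H11B*, *BARHL2* and *FAM72B*. Most were far from the summit: *BARHL2* 10093 bp, *HAX1* 14251 bp, *ZC3H11B* 64084 bp, *ZNF648* 126499 bp, *IER5* 151088 bp and *FAM72B* 321008 bp. The *HAPLN2* peak, 367 bp upstream of a hyaluronan and proteoglycan link protein gene, had 46 tags and 9.01 on an 8-base match. The *ZC3H11B* peak, 55 tags and 8.11, had the shortest match of the 19, 5 bases, with 8 of 20 bases of T2 in all. By contrast, the 3 peaks with the most tags were weakly enriched and had no T2 seed at the summit. They held 373 tags between genes 164071 bp from the start of *PPIAL4B* with a fold enrichment of 2.76, 298 tags in an intron of *LAMC1* (laminin gamma 1) with 2.26, and 240 tags in an intron of *UBE2U* with 2.58.

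The share of summits in genes differed little between chromosome 1 and the rest of the list. The summit lay in a protein-coding gene for 520 peaks (49.9%, 46.9 to 52.9), where the whole list had 51.5% and the other chromosomes 51.7%. Protein-coding genes cover 50% of the sequenced bases of chromosome 1 and 45.1% of those of the other chromosomes. The share in genes was thus above the cover on the other chromosomes together but not on chromosome 1, a contrast that was not tested. The short arm had 49.6% and the long arm 50.2%. In coding exons lay 6 summits (0.576%, 0.264 to 1.25), where the other chromosomes had 0.835%, a difference of -0.259 points (-0.657 to 0.442). They were in *FDPS*, *SETDB1* or *CERS2*, *CAPN8*, *SLC9C2*, *ATP1A4* and *AKNAD1* or *CLCC1*, and none of the 6 had a T2 match. Only 15.7% of all chromosome 1 summits had a match, so nothing is read from its absence at 6. The 2 kb upstream of a protein-coding start held 44 summits (4.22%, 3.16 to 5.62) against 2.62% elsewhere, a difference of 1.60 points (0.460 to 3.04) beside 9.14 against 6.74 protein-coding genes per Mb. The 3 most enriched of these lay 367 bp upstream of *HAPLN2*, 1110 bp upstream of *C1orf56* and 1299 bp upstream of *UBXN10*.

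Of the 2060 protein-coding genes of chromosome 1, 367 held at least 1 summit (17.8%), and 261 of these held 1. They were long, with a median of 68 kb against 18.6 kb for the genes without. *DAB1*, the adaptor of reelin signalling and at 1552 kb the longest of the 10 genes with the most summits, held 10, of which 2 had a T2 match. Per Mb this was 6.44, beside 4.63 for the whole chromosome. *SLC35F3* and *MACF1*, which encodes a protein that links microtubules and actin, held 6 each, and *ST6GALNAC3*, a sialyltransferase gene, and *RABGAP1L* held 5 each. *RCSD1*, *BCAR3*, *ADGRL2*, *DDR2* and *NUP210L* held 4. For its length *RCSD1* stood highest of these, with 50.9 summits per Mb over 78.6 kb, 26 to 57 tags and no T2 match. In these 10 genes the highest fold enrichment of a summit ran from 3.90 in *RABGAP1L* to 7.05 in *DAB1*.

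Genes of the clusters for which chromosome 1 is known mostly held no summit, and several of these clusters consist of short genes. Summits between the genes of a cluster were not counted here. Among these was 1 that lay 834 bp upstream of *OR10Z1*, an olfactory receptor gene. No summit lay in the 61 olfactory receptor genes, the 44 genes of the epidermal differentiation complex, the 23 *PRAMEF* genes, the 16 histone genes, the 14 *NBPF* genes, the 9 SLAM family genes, or in the *CD1*, collagen or Rh genes of the chromosome. Median gene lengths were 5.86 kb for the olfactory receptors and 1.71 kb for the epidermal genes, but 47.5 kb for *NBPF* and 52.1 kb for the collagen genes. The *NBPF*, *PRAMEF*, amylase and *NOTCH2* families hold near-identical copies, in which uniquely mapped reads cannot be placed in shared stretches. In several immune families a single member held a summit. None of these summits had a T2 match, which was so for 878 of the 1042 peaks of the chromosome. *CD46*, a complement regulator, held 2 with up to 74 tags and a fold enrichment of up to 3.53, and *FCER1G*, the Fc receptor gamma chain, *SELP*, which encodes P-selectin, *GBP6* and *S100A10* held 1 each with fold enrichments of 3.24 to 4.85. *AMY2B*, a pancreatic amylase gene, and *ZNF362* held 1 each, with 95 and 76 tags, and *NOTCH2*, which encodes a Notch receptor, held 3 with a fold enrichment of up to 4.21.

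Of the families listed, the potassium channel genes had the largest number of members with a summit. Of 14 *KCN* genes of the chromosome, 5 held a summit, where 17.8% of all protein-coding genes did, and their median length was 91.5 kb. *KCNJ10* and *KCNH1* each held 1 strong T2 peak, described above. *KCNN3*, a calcium-activated channel gene of 173 kb, held 4 with at most 59 tags and a fold enrichment of up to 4.56, *KCNC4* held 2 with up to 4.21, and *KCNK2* held 1 with 2.97. The summits in *KCNN3*, *KCNC4* and *KCNK2* had no T2 match, so the family had both kinds of peak.

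The spacing of the summits restates the density that chose the chromosome, and is given as a description. The median distance between neighbouring summits was 107 kb, against 180 kb on the other chromosomes and 107 kb on chromosome 22. Another summit lay within 10 kb of 178 summits (17.1%, 14.9 to 19.5), against 9.51% (8.83 to 10.2) on the other chromosomes, 13.7% (11.3 to 16.6) on chromosome 2 and 16.4% (11.4 to 22.9) on chromosome 22. The widest gap between neighbouring summits within an arm was 6.29 Mb, on the long arm. The short arm had 15.1% and the long arm 18.9% of summits with such a neighbour. The longest run of close summits, singled out after its values were seen, held 4 over 15.1 kb, the last of them in *JUN*, the gene of the AP-1 transcription factor c-Jun. Their tags summed to 323, their highest fold enrichment was 5.03 and none had a T2 match, like 878 of the 1042 peaks of the chromosome. In the run of 3 summits from 244877993 to 244892833, 2 had a T2 match, and the highest fold enrichment was 6.91.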

How the data were processed

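Of the ChIP-seq experiment, 1 list of peaks was used. Per the file headers and the methods, the authors aligned reads to hg19, sampled equal numbers of unique reads and called peaks with MACS 1.4.2 at *P* 0.001 against the input (band width 300 bp, fragments 200 bp, at most 1 tag per position, local background over 1 kb and 10 kb). The deposited tag counts are whole ChIP tags per peak, not normalized. The deposited fold enrichment is a ratio to the MACS background, the deposited FDR is a percent, and the deposited score is -10 log10 *P*. Depth was 62723055 ChIP and 62723050 input tags, of which 44934315 and 46375481 remained without duplicates. Reads carried no molecular identifiers. With 1 ChIP sample, intervals cover counting error only. The methods name triplicates and a repeat filter on the peaks, while the labels hold 1 ChIP sample. The paper's text reports far fewer enriched peaks than the 7757 listed here, while a supplementary legend counts nearly as many binding sites. The list described here is thus much larger than the peak set of that text. It may hold peaks that the repeat filter or the choice of shared peaks would take out. Whether either step had been applied to the list could not be checked here.

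Peaks were assigned by summit on GRCh37 with GENCODE 44, protein-coding genes with basic transcripts. The 8 peaks on other contigs were not placed. A T2 match was an unbroken run of at least 5 bases ending at NGG, whose seed and PAM lay within 70 bp of the summit, on either strand, with gRNA sequences from the study's supplement. The search and intervals were tested on simulated data (Python 3.11.15, NumPy 2.4.6, SciPy 1.17.1, pandas 2.3.3, matplotlib 3.10.9). Intervals are 95% exact Poisson (densities), exact conditional (ratios of densities), Wilson (shares) and Newcombe (differences). Genes were named at the 20 peaks with the highest fold enrichment, the 10 genes with the most summits, the peak nearest *TGFBR3* and the members of listed families that held a summit. Genes at the peaks of the short arm end and of 185 to 195 Mb, in coding exons and promoters, at the peaks with the most tags and in runs of close summits were added after their values were seen. The chromosome, gene families and tests were chosen with earlier results of these data known. Of the genes this rule names, 1 is not reported here.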

Additional observations from a re-analysis of the deposited data

How the results depend on the processing

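The density of chromosome 1 over that of the other chromosomes, 1.82, was 1.96 among peaks with *P* at or below 1e-05, and stayed within its interval with 1 peak per run of close summits and without the densest bin. The long arm to short arm ratio of 1.27 was 1.14 (0.835 to 1.55) among peaks with *P* at or below 1e-05, an interval that includes 1, and moved to 1.05 when unsequenced bases were counted and to 1.04 without the first 25 Mb, a choice added after the data were seen. The ratio of the densest to the median bin, 3.07, was 4.62 with bins of 2 Mb and 1.88 with bins of 10 Mb. The T2 share of peaks against other chromosomes, -1.74 points, reversed to 4.49 over the whole peak, the longer window of the longer peaks, for 5 bases but not for 8 (-2.70) or 11 (-2.86), and at -2.28 its interval excluded 0 for 11 bases. The share of summits with a neighbour, 17.1% within 10 kb, was 10.1% within 5 kb and 50.8% within 50 kb. With *P* at or below 1e-05, median tags were 57 and median fold enrichment 4.81, against 46 and 5.16 elsewhere, and without T2 peaks median fold enrichment was 3.48 against 3.69. The other 21 of 33 alternatives, the arm ratio of 1.14 among them, kept their direction and their side of 0 or stayed within the interval. The 4 of the share of T2 sites at a summit follow the density by which the chromosome was chosen. Leaving out a replicate was not possible with 1 ChIP sample. No paired analysis was possible because there was 1 ChIP list. The numbers of peaks limit single bins, where 1 peak in 5 Mb has an interval from 0.00546 to 1.2 per Mb.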
